A study of Mus musculus with 16 samples.

Results

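The cholesterol synthesis genes examined here, 7 in number, were followed in mouse fetal cortex after ethanol exposure of the father, the mother or both parents. The 7 genes (Hmgcs1, Idi1, Fdps, Fdft1, Sqle, Dhcr7 and Insig1) were taken by name from the 55359 gene IDs of the count tables, and all 7 passed the filter on low counts. Insig1 codes for a regulator and the others for enzymes, so no gene of cholesterol uptake is among them. Cortex was taken at gestational day 16, and total RNA sequencing gave 16 libraries, which fall into 8 groups of 2 by fetal sex and parental exposure. The exposures are labelled paternal EtOH, maternal EtOH, dual EtOH (both parents) and control, with 4 libraries each. The sources used here give no strain, ethanol dose, timing of exposure or litter. Replicates may share a litter, and the p-values weigh differences only against the spread between these libraries.

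Cholesterol is built from acetyl-CoA through mevalonate, isoprenoid pyrophosphates, squalene and lanosterol. The developing brain comes to rely on its own synthesis, because circulating lipoproteins do not cross the blood-brain barrier. The pathway is set by SREBP2, a membrane-bound transcription factor that SCAP carries to the Golgi for cleavage when sterols are low. INSIG1 holds SCAP in the endoplasmic reticulum when sterols are high, and its own gene is an SREBP target. Transcripts of such target genes are commonly used to follow SREBP2.

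Summed counts ran from 15336566 to 19966696 in male libraries and from 26134287 to 35218456 in female libraries, so sex and depth cannot be told apart. Markers of cortical neurons summed to 2378 to 2928 CPM in all 16 libraries (counts relative to the TMM-scaled library size, used throughout). No marker of the 9 cell types examined was at 0 in any library. The female dual libraries held 0.872% and 0.860% of their counts in genes of the classes TEC (predicted, still to be tested) and sense-intronic, against 0.280% to 0.534% in the other 14 libraries. Female control replicate 1 had 83.5 CPM of summed meningeal and fibroblast markers, the lowest of all libraries.

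The promoter of Hmgcs1 is shown because Hmgcs1 is a classical SREBP target and its window held a sterol regulatory element. It is the RefSeq window from 250 bases before to 50 bases after the start, at chr13:119690101-119690400 of GRCm38.p6 on the plus strand, with the element in capitals.
Hmgcs1 promoter: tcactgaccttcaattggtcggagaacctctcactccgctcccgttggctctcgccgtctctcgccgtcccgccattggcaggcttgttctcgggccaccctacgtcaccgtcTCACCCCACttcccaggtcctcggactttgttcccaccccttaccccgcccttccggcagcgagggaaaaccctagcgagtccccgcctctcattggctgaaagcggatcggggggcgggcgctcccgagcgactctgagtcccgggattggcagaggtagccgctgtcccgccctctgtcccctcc

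Windows were searched on both strands for TCACNCCAC (the sterol element), CCAAT (the NF-Y box) and GGGCGG (the GC box). The Hmgcs1 window held 1 sterol element, 137 bases before the start, with 4 NF-Y boxes and 3 GC boxes, none overlapping the sterol element. Of 32851 RefSeq promoter windows of 300 bases, 1.24% held TCACNCCAC, 37.4% held CCAAT and 35.7% held GGGCGG. Windows were at hand for 4 of the 7 genes. Those of Insig1, Idi1 and Dhcr7 had no match to these letters of the sterol element, which says nothing of SREBP binding there.

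A stretch of the Fdps coding sequence and of its nearest pseudogene copies is shown because the only call among the 7 genes fell on Fdps. Bases 301 to 360 of the coding sequence are given from GENCODE M21, with bases that differ from Fdps in capitals. The 3 sequences lie on chromosomes 3, 10 and 6 in the order shown.
Fdps: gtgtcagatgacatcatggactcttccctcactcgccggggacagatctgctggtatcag
Gm3571: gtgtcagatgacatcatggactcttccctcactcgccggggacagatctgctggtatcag
Gm5873: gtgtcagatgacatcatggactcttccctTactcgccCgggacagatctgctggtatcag

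Gm3571 was identical to Fdps over these 60 bases and Gm5873 differed at 2 of them. Over aligned bases, Gm3571 was 98.9% identical to Fdps and Gm5873 was 96.7% identical. In all, 6 genes matched 91.4% of the Fdps transcript of 1382 bases, counting matches of at least 90% identity over at least 200 bases. Among them was Gm43738, a protein-coding gene that overlaps Fdps on the same strand and shares 26.7% of its exon bases. It matched 929 bases of the transcript at 100% identity, and reads from the shared bases could belong to either gene. Copies of Fdft1 (with its antisense neighbour Ctsb) matched 54.7% of its transcript and those of Idi1 (with Gm48574 on its opposite strand) 33.3%. Hmgcs1 had no copy, but its antisense gene Gm48342 matched 13.3%, while Sqle, Insig1 and Dhcr7 had no match. The sources used here do not say how reads mapping to several places were counted, so values of Fdps, Fdft1 and Idi1 are uncertain. The copies themselves received few counts: Gm3571 had 224 and Gm5873 had 84 over all 16 libraries. These counts do not show how reads shared with Fdps were treated.

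Per kb of exon, Hmgcs1 had the highest level of the 7 genes and Fdps the lowest. Hmgcs1, the cytosolic HMG-CoA synthase, averaged 90.7 ± 10.3 CPM per kb in control libraries (SD, n = 4). Squalene synthase, coded by Fdft1, averaged 36.4 ± 2.27, squalene epoxidase (Sqle) 30.3 ± 1.20 and Insig1 20.0 ± 1.17 CPM per kb. Dhcr7 averaged 8.36 ± 0.734, Idi1 5.48 ± 0.986 and Fdps 1.05 ± 0.142 CPM per kb. Each gene in this order stood apart from the next by more than the summed SDs of both, which measure only spread between libraries. Exon length here was the union of all annotated exons, 5546 bases for Sqle, 4227 for Fdft1 and 4208 for Fdps. Their longest coding transcripts had 2758, 3698 and 1382 bases, so the order can change with the length used. Fdps also had the fewest counts, with 54 to 180 per library. Copies matched 91.4% of its transcript, and the treatment of reads mapping to several places is not known. Its low level and its place in the order may depend on that treatment, which the SDs do not cover.

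**Figure D1:**
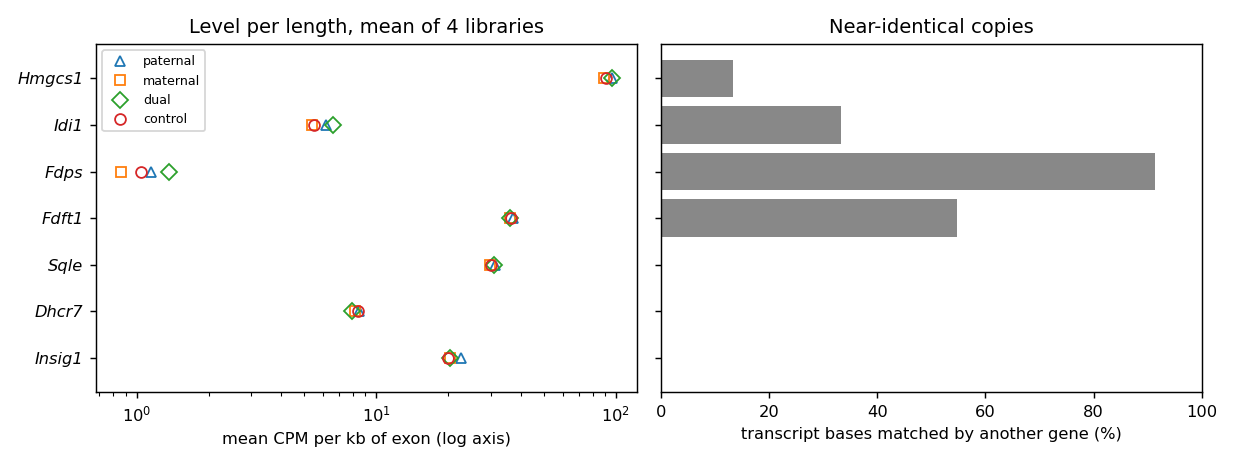
Left, the mean CPM per kb of exon of each gene over 4 libraries (log axis), with triangles for paternal, squares for maternal, diamonds for dual exposure and circles for control. Right, the percentage of each gene's transcript matched by another gene. Fdps has both the lowest level and the largest matched share, 91.4%.

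Over the 16 libraries CPM varied least for Sqle and most for Fdps. The coefficient of variation of CPM was 4.50% for Sqle, 5.16% for Fdft1, 6.85% for Dhcr7, 7.98% for Insig1 and 8.89% for Hmgcs1. It was 14.0% for Idi1 and 21.8% for Fdps. The median over 13775 tested genes with a mean log2 CPM of at least 1 was 10.3%. That median was not matched for level, and Idi1 and Fdps had the lowest mean CPM of the 7 genes, at 20.8 and 4.65.

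Each exposure was first set against control, with the male and female differences averaged. With edgeR's quasi-likelihood test and an adjusted p threshold of 0.05, none of the 7 genes was called in any of these 3 comparisons. For paternal exposure 0 of 21543 genes were called (0%), and DESeq2 called 20 genes, none of them among the 7. At an unadjusted p under 0.05, 1 of the 7 and 8.45% of all genes passed. For maternal exposure 0 genes were called (0%) and DESeq2 called 2, again none of the 7, with 0 of the 7 and 3.79% of all genes under an unadjusted p of 0.05. For dual exposure 3.36% of genes were called and 0 of the 7 by either tool, with 2 of the 7 and 19.7% of all genes under an unadjusted p of 0.05.

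The fitted log2 fold change was below 0 for 0 of the 7 genes with paternal exposure (52.5% of all genes), for 6 with maternal exposure (51.1%) and for 2 with dual exposure (49.9%). The median over the 7 genes was 0.10, -0.02 and 0.04 for paternal, maternal and dual exposure, against -0.01, -0.00 and 0.00 over all genes tested. These 3 comparisons share the 4 control libraries. The counts of signs describe the 7 genes and carry no test of their own.

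**Figure D2:**
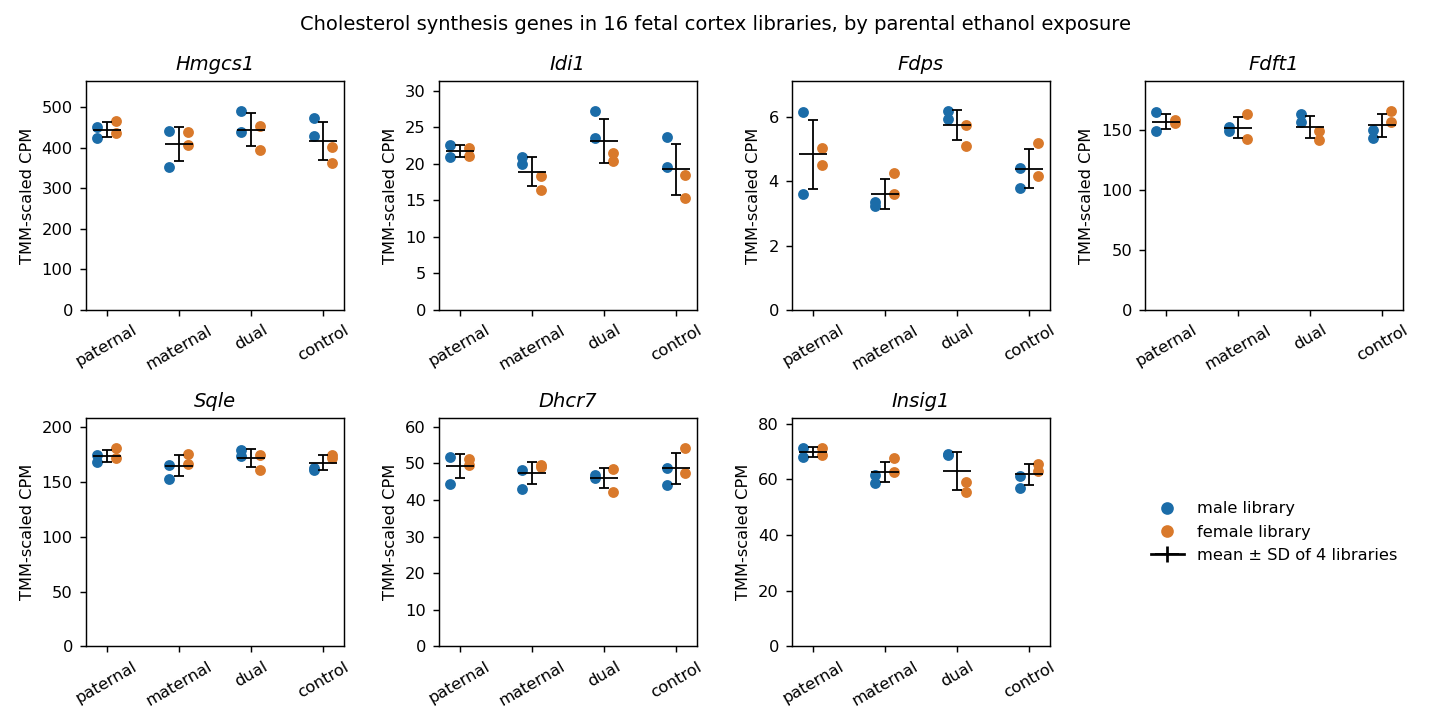
TMM-scaled CPM of each gene in all 16 libraries, with paternal, maternal and dual exposure left of control. Blue points are male and orange points female libraries, and black bars are the mean ± SD of 4 libraries. Insig1 is higher in the 4 paternal than in the 4 control libraries, and Fdps is higher in the 4 dual than in the 4 maternal libraries.

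The entry enzyme Hmgcs1 condenses acetoacetyl-CoA with acetyl-CoA. It had 423 and 450.3 CPM in male and 437 and 466 CPM in female paternal libraries. It had 352 and 441 CPM in male and 407 and 439.5 CPM in female maternal libraries. It had 491 and 439.8 CPM in male and 394 and 454 CPM in female dual libraries, against 429.7 and 474 CPM in male and 361 and 401 CPM in female control libraries. All 3 exposures overlapped control, and in females alone the paternal and maternal libraries lay above both controls. With so few libraries a separation within a sex can arise by chance. The share of all genes that separated within a sex was not counted, for this gene or for those below. The fold change was 1.07 for paternal exposure (95% interval 0.962 to 1.19), 0.987 for maternal (0.888 to 1.10) and 1.07 for dual exposure (0.962 to 1.19).

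Idi1, the isomerase that makes the allylic partner for isoprenoid chains, had its highest mean with dual exposure over both sexes, while in females alone the paternal mean (21.6 CPM) lay above the dual mean (20.95 CPM). It had 22.6 and 21.0 CPM in male and 22.2 and 21.1 CPM in female paternal libraries. In maternal libraries it had 20.0 and 20.9 CPM in males and 16.4 and 18.4 CPM in females. In dual libraries it had 27.3 and 23.5 CPM in males and 20.4 and 21.5 CPM in females, against 19.5 and 23.7 CPM in male and 18.4 and 15.3 CPM in female controls. Dual libraries overlapped control through male control replicate 2, and in females the 2 dual and 2 control libraries did not overlap. The 2 female paternal libraries also lay above both female controls. The dual log2 fold change was 0.28 ± 0.09 (SE), which did not pass (edgeR adjusted p = 0.109). It passed once female control replicate 1 was left out, at 0.35 (edgeR adjusted p = 0.0275), and in no other of the 16 fits that left out a library.

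Fdps codes for farnesyl pyrophosphate synthase, which supplies farnesyl groups to sterols, dolichol and prenylated proteins. In paternal libraries it had 6.18 and 3.61 CPM in males and 4.53 and 5.05 CPM in females. In maternal libraries it had 3.35 and 3.22 CPM in males and 4.26 and 3.62 CPM in females. In dual libraries it had 5.95 and 6.20 CPM in males and 5.11 and 5.78 CPM in females, against 3.81 and 4.43 CPM in male and 4.16 and 5.21 CPM in female controls. With both sexes together the maternal libraries were low and the dual libraries high, and both overlapped control. In males alone the maternal libraries lay below both controls and the dual libraries above both. In females alone both exposures overlapped control. The dual log2 fold change against control was 0.39 ± 0.17 (edgeR adjusted p = 0.207), and the maternal one was -0.29 ± 0.17 (adjusted p = 0.998). The sign of the paternal change rested on 1 library: it was 0.13 ± 0.17 with all libraries and -0.080 without male paternal replicate 1.

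Dual exposure set against maternal exposure gave the only call among the 7 genes. Fdps rose, with 5.11 to 6.20 CPM in dual libraries against 3.22 to 4.26 CPM in maternal libraries, and the 4 and 4 libraries did not overlap. The log2 fold change was 0.67 ± 0.17, a 1.60-fold difference (95% interval 1.24 to 2.05, edgeR adjusted p = 0.0275). In that comparison 5.76% of all genes were called and 21.1% had an unadjusted p under 0.05, as did 2 of the 7, and 6.43% lay higher in all 4 dual than in all 4 maternal libraries. The difference was 0.88 ± 0.25 in males alone (edgeR adjusted p = 0.496) and 0.46 ± 0.23 in females alone (adjusted p = 0.249), each from 2 against 2 libraries.

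The Fdps call did not survive every change of setting. It was lost among protein-coding genes alone, at 0.72 (edgeR adjusted p = 0.0767). It was also lost without male maternal replicate 1 (adjusted p = 0.0836) or 2 (0.0829), male dual replicate 1 (0.0900) or 2 (0.0747), female maternal replicate 1 (0.0592) or 2 (0.115), or female dual replicate 2 (0.0967), with log2 fold changes of 0.62 to 0.73. Other cell types moved in the same comparison: 3 of 7 endothelial and pericyte markers and 3 of 5 red blood cell markers were called lower, against 1.34% of all genes. Summed endothelial and pericyte markers were 279 to 355 CPM in dual and 388 to 429.5 CPM in maternal libraries, and red blood cell markers were 364 to 517 CPM in dual and 562 to 949.9 CPM in maternal libraries. Gene IDs with no symbol took 7.16% and 17.8% of counts in male dual libraries and 1.73% and 1.84% in female dual libraries, against 4.69% and 4.52% in male and 2.05% and 2.14% in female maternal libraries. Male dual replicate 2, at 17.8%, and male paternal replicate 1, at 14.2%, had the highest such shares and the highest Fdps levels of the 16 libraries (6.20 and 6.18 CPM). Meningeal and fibroblast markers were 224 to 381 CPM in dual and 368 to 612 CPM in maternal libraries, with 8 of 8 below 0 (49.6% of all genes) and none called by edgeR (5 at an unadjusted p under 0.05). Their part in the Fdps difference was not tested.

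**Figure D3:**
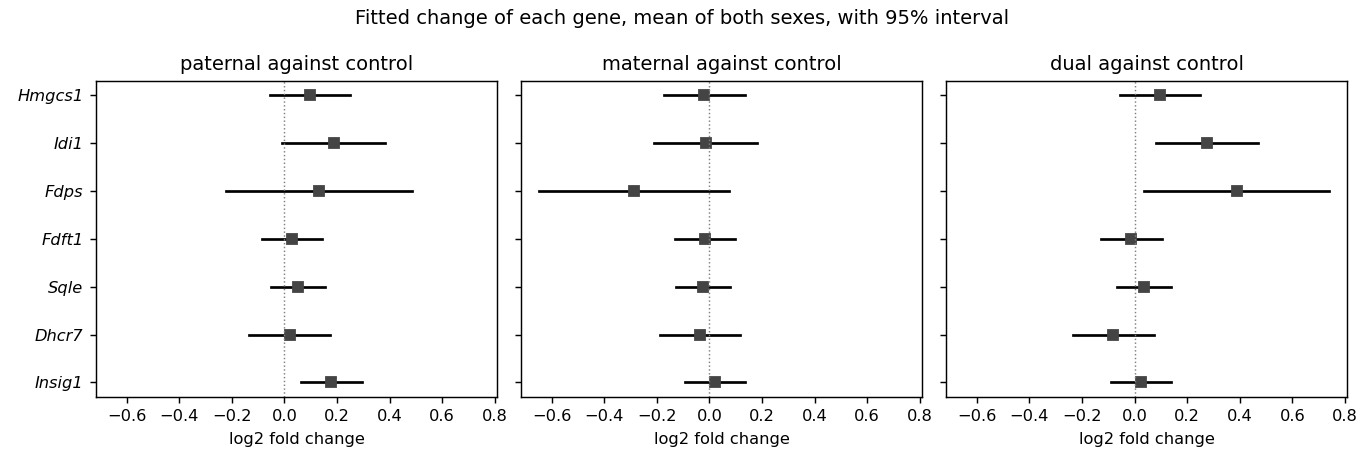
Fitted log2 fold change of each gene against control, averaged over both sexes, with its 95% interval, for paternal, maternal and dual exposure. All intervals for maternal exposure include 0, while those of Insig1 with paternal and of Idi1 and Fdps with dual exposure do not, and none of these passed the adjusted threshold.

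Fdft1 and Sqle, the enzymes that commit isoprenoids to sterols, overlapped between all exposures with both sexes together. Fdft1 ranged over 149 to 165 CPM in paternal, 143 to 163 CPM in maternal and 142 to 164 CPM in dual libraries, against 144 to 166 CPM in controls. Its fold change was 1.02 for paternal exposure (95% interval 0.943 to 1.11), 0.988 for maternal (0.913 to 1.07) and 0.992 for dual exposure (0.916 to 1.07). Sqle ranged over 168 to 182 CPM in paternal, 153 to 175 CPM in maternal and 161 to 179.7 CPM in dual libraries, against 161 to 175 CPM in controls. Its fold change was 1.04 (0.966 to 1.11), 0.984 (0.916 to 1.06) and 1.03 (0.955 to 1.10) for paternal, maternal and dual exposure. Within a sex some libraries stood apart, which can arise by chance, and the share of all genes that did so was not counted. Fdft1 had 156 to 164 CPM in male dual libraries against 144 to 150.0 CPM in male controls, and 142 to 149 CPM in female dual libraries against 157 to 166 CPM in female controls. Sqle had 168 to 175 CPM in male paternal and 174 to 179.7 CPM in male dual libraries, against 161 to 163 CPM in male controls. None of these within-sex differences passed the adjusted threshold. The 6 intervals given above, averaged over both sexes, together ran from 0.913 to 1.11 and do not bound the within-sex differences.

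Dhcr7 reduces 7-dehydrocholesterol to cholesterol, and its loss in humans causes Smith-Lemli-Opitz syndrome. It ranged over 44.4 to 51.8 CPM in paternal, 43.0 to 49.6 CPM in maternal and 42.3 to 48.5 CPM in dual libraries, against 44.0 to 54.3 CPM in controls. All ranges overlapped. The fold change was 1.01 for paternal exposure (95% interval 0.912 to 1.13), 0.976 for maternal (0.878 to 1.08) and 0.946 for dual exposure (0.851 to 1.05).

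Insig1 had the smallest p of the 7 genes with paternal exposure. It had 71.1 and 68.1 CPM in male and 68.7 and 71.4 CPM in female paternal libraries, against 57.0 and 61.3 CPM in male and 63.0 and 65.6 CPM in female controls. All 4 paternal libraries lay above all 4 controls, which 1.23% of all genes tested also did. The log2 fold change was 0.18 ± 0.05, a 1.13-fold difference (95% interval 1.05 to 1.23), and did not pass (edgeR adjusted p = 0.438). The adjusted p ran from 0.133 to 0.864 over all alternatives.

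Markers of other cell types had overlapping ranges in paternal and control libraries, with some shift. Meningeal and fibroblast markers summed to 429.7 to 580.3 CPM in paternal and 83.5 to 498 CPM in control libraries. The 83.5 CPM came from female control replicate 1, and the other control libraries had 402 to 498 CPM. Thalamic markers summed to 44.7 to 53.3 CPM in paternal and 49.6 to 117 CPM in control libraries. The 117 CPM came from female control replicate 2, and the other control libraries had 49.6 to 71.3 CPM. Of these markers, 8 of 8 meningeal ones lay above 0 and 4 of 4 thalamic ones below 0, and edgeR called none (4 and 3 at an unadjusted p under 0.05). Their part in the Insig1 values was not tested.

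With dual exposure Insig1 lay above both controls in males and below both in females. It had 68.6 and 69.0 CPM in male dual libraries against 57.0 and 61.3 CPM in male controls. It had 58.9 and 55.5 CPM in female dual libraries against 63.0 and 65.6 CPM in female controls. In maternal libraries it had 61.5 and 58.7 CPM in males and 67.5 and 62.6 CPM in females, overlapping the controls of both sexes. The dual log2 fold change was 0.22 ± 0.08 in males (edgeR adjusted p = 0.942) and -0.17 ± 0.08 in females (adjusted p = 0.147), and neither passed. With so few libraries in each group, such a separation within a sex can arise by chance. The share of all genes that separated in this way was not counted, here or for the other genes set apart within a sex.

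The sex difference of the dual effect on Insig1, male minus female, was 0.39 ± 0.11 (edgeR adjusted p = 0.0599). Of all genes 3.5% were called for that sex difference, and 0 of the 7. At an unadjusted p under 0.05 these were 20.4% of all genes and 2 of the 7. DESeq2 called it (adjusted p = 0.0406), as did edgeR without female control replicate 2 (0.37, adjusted p = 0.0429), whereas among protein-coding genes alone it was 0.31 (adjusted p = 0.201). Fdft1 had the next smallest p, with a sex difference of 0.27 ± 0.11 (adjusted p = 0.166). The other 5 genes had adjusted p-values from 0.330 to 0.856.

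Within each sex, dual exposure changed none of the 7 genes past the threshold. In males edgeR called 0% of all genes (4.86% at an unadjusted p under 0.05, and 2 of the 7) and DESeq2 called 1. In females edgeR called 15% of all genes. In females 2 of the 7 and 29.9% of all genes fell under an unadjusted p of 0.05. The female dual libraries stood apart in transcript make-up. The nuclear RNA Malat1 reached 5672 and 5847 CPM there, against 2845 to 5042 CPM in the 12 libraries of the other groups and 2704 and 3198 CPM in female controls, beside the TEC and sense-intronic shares given above. Their part in the female values was not tested.

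The remaining comparisons called none of the 7 genes. Against paternal exposure, dual exposure had its smallest p for Insig1, at -0.15 ± 0.05 (edgeR adjusted p = 0.0884), in a comparison that called 8.81% of genes. At an unadjusted p under 0.05 stood 1 of the 7 and 24.6% of all genes. Against paternal exposure, maternal exposure had 7 of 7 genes below 0 (49.3% of all genes), with a median log2 fold change of -0.12 against 0.00 over all genes. That comparison called 0 genes with edgeR (0%) and 0 with DESeq2, and 3 of the 7 and 3.38% of all genes had an unadjusted p under 0.05. Non-additivity, the dual effect less the paternal and the maternal effect, had its smallest p for Insig1 (-0.17 ± 0.08) and Fdps (0.54 ± 0.24), both with an adjusted p of 0.218, where 4.21% of genes were called. At an unadjusted p under 0.05 these were 2 of the 7 and 19.6% of all genes.

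Between the sexes Idi1 had the smallest p, with a male minus female log2 difference of 0.22 ± 0.07 (edgeR adjusted p = 0.161). It passed without female control replicate 1 (0.25, adjusted p = 0.0263), and 0.877% of all genes were called with all libraries (11.4% at an unadjusted p under 0.05, and 1 of the 7). The 6 comparisons not described above called 0% of genes with edgeR, and DESeq2 called 0 to 50 genes and none of the 7. At an unadjusted p under 0.05, paternal exposure had 1 of the 7 in males (10.4% of all genes) and 2 in females (7.89%). Maternal exposure had 0 in males (7.92%) and 0 in females (4.7%). The sex difference had 0 of the 7 for the paternal effect (10.8%) and 1 for the maternal effect (9.86%). Over all 17 comparisons, 1 of 119 tests on the 7 genes was called and 22 had an unadjusted p under 0.05.

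Of 15 further enzymes examined 14 were tested, and none was called for paternal, maternal or dual exposure with both sexes averaged. In females with dual exposure 1 of the 14 was called lower, against 5.64% of all genes, and the median log2 fold change was -0.08 against 0.02 over all genes. Acat2, the thiolase of the first step, had 112.5 and 110.1 CPM in female dual libraries against 129 and 132 CPM in female controls, a log2 fold change of -0.23 ± 0.07 (edgeR adjusted p = 0.0327). In males with dual exposure 4 of the 14 lay below 0 (51.1% of all genes) and none was called, with a median of 0.08. Acat2 was called for the sex difference of the dual effect, at 0.37 ± 0.10 (adjusted p = 0.0450).

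All 6 SREBP regulators tested (Srebf1, Srebf2, Scap, Insig2, Mbtps1 and Mbtps2) lay below 0 in females with dual exposure, as did 48.1% of all genes. Of the 6, 2 fell, against 5.64% of all genes called lower. Srebf2, the gene of SREBP2, had 247.4 and 247.4 CPM in female dual libraries against 289 and 301 CPM in female controls, a log2 fold change of -0.25 ± 0.07 (edgeR adjusted p = 0.0163). Scap had 52.6 and 57.3 CPM in female dual libraries against 61.5 and 71.3 CPM in female controls, a change of -0.27 ± 0.09 (adjusted p = 0.0392). The median of the 6 was -0.23 in females and -0.02 in males. Averaged over both sexes, Srebf2 was at -0.16 ± 0.05 (adjusted p = 0.0698) and Scap at -0.22 ± 0.06 (adjusted p = 0.0637), and neither passed.

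**Figure D4:**
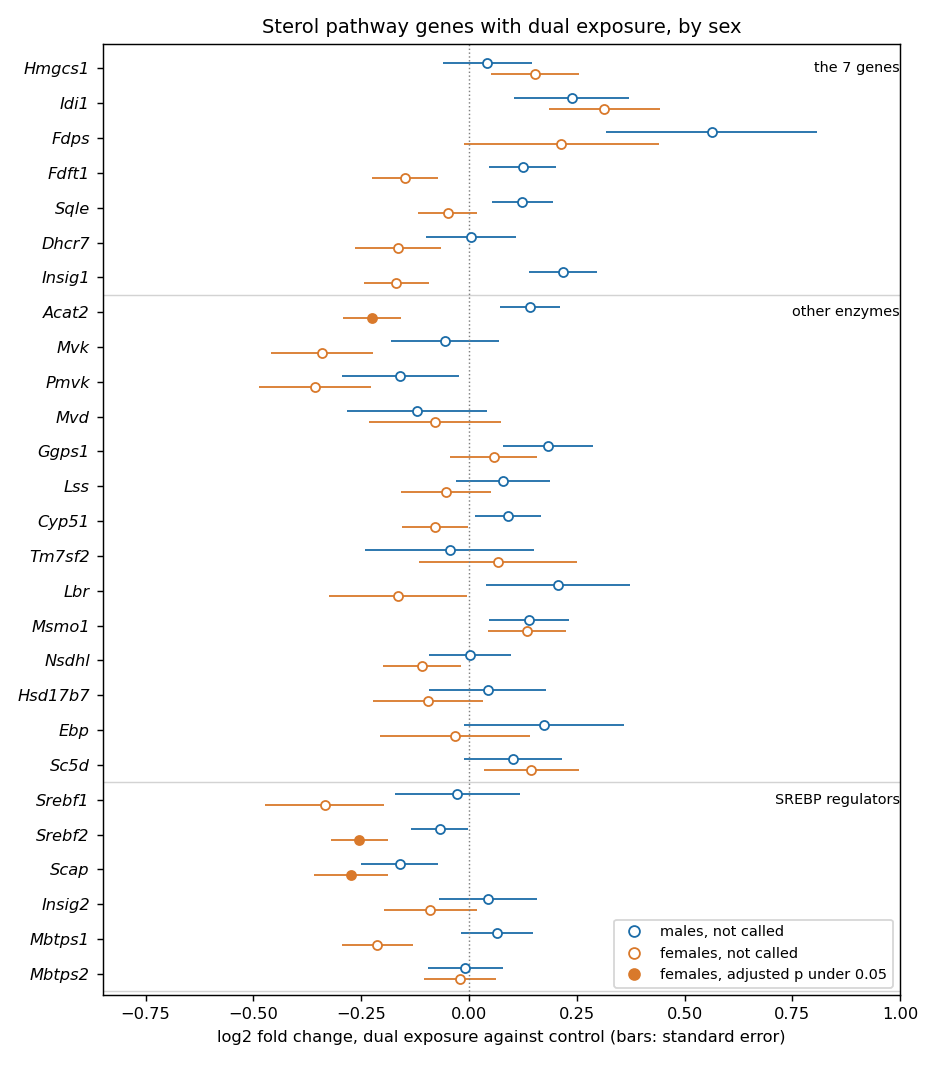
Fitted log2 fold change of dual exposure against control in males (blue, above) and females (orange, below) for the 7 genes, 14 other enzymes and the SREBP regulators, with bars for the standard error. Filled points had an adjusted p under 0.05. The 3 filled points, Acat2, Srebf2 and Scap, are all female and below 0.

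Of 9 genes of uptake and trafficking, 1 was called lower with dual exposure in females, against 5.64% of all genes, and none was called in the 3 comparisons with control over both sexes. Npc2, which hands cholesterol on inside lysosomes, had 59.0 and 52.3 CPM in female dual libraries against 76.0 and 63.0 CPM in female controls, a log2 fold change of -0.32 ± 0.10 (edgeR adjusted p = 0.0431). Of 10 fatty acid genes under SREBP1, 2 fell with dual exposure in females, against 5.64% of all genes called lower. Fads1 had 144 and 139 CPM in female dual libraries against 166 and 175 CPM in female controls, a change of -0.27 ± 0.06 (adjusted p = 0.00819). Fads2 had 197 and 205 CPM in female dual libraries against 223 and 251 CPM in female controls, a change of -0.24 ± 0.07 (adjusted p = 0.0385). Both code for fatty acid desaturases.

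These 6 female calls rest on 2 against 2 libraries and were not stable. All 6 (Acat2, Srebf2, Scap, Npc2, Fads1 and Fads2) were lost without female dual replicate 2 (edgeR adjusted p from 0.0763 to 0.290), among protein-coding genes alone (0.0700 to 0.224) and in a fit of the compared groups alone (0.118 to 0.175). Without female dual replicate 1, Acat2, Srebf2, Scap and Fads2 were lost (0.0614 to 0.197). Without female control replicate 2, Acat2, Scap and Fads2 were lost (0.0528 to 0.193), and without female control replicate 1, Npc2 (0.271). The size also moved: without female control replicate 1 the log2 fold change was -0.18 for Npc2 and -0.38 for Scap. Without female control replicate 2 it was -0.46 for Npc2, -0.17 for Scap and -0.16 for Fads2. Among protein-coding genes alone all 6 changes were smaller than reported. There Acat2 was at -0.15, Srebf2 at -0.17, Scap at -0.20, Npc2 at -0.24, Fads1 at -0.19 and Fads2 at -0.16. The female dual values thus depended on the set of genes used. Leaving out female paternal or maternal replicate 2 put Scap, Npc2 and Fads2 just over the threshold (0.0526 to 0.0593), as did leaving out male control replicate 2 or female paternal or maternal replicate 1 for Npc2 (0.0517 to 0.0559). With no filter on low counts, Acat2 (0.0675) and Scap (0.0533) were lost. In the same female libraries, microglial markers summed to 35.2 and 26.1 CPM with dual exposure against 40.8 and 45.1 CPM in control, and red blood cell markers to 367 and 364 CPM against 522 and 644 CPM. Thalamic markers summed to 44.8 and 68.6 CPM with dual exposure against 53.3 and 116.5 CPM in control, where replicate 2 was the highest of all 16 libraries. Of the 4 thalamic markers 4 lay below 0, and Lhx9 was called lower (-0.82 ± 0.23, edgeR adjusted p = 0.0253). Their part in these changes was not tested.

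Among 7 genes of cholesterol efflux and its LXR receptors, Abca1 was the only one called. The transporter's CPM was 174 and 163 in male and 147 and 126 in female dual libraries, against 195 and 181 in male and 177 and 160.5 in female maternal libraries. The log2 fold change of dual against maternal exposure was -0.23 ± 0.06 (edgeR adjusted p = 0.0253), in a comparison that called 5.76% of all genes. That of dual against paternal exposure was -0.21 ± 0.06 (adjusted p = 0.0316), where 8.81% of all genes were called. Its non-additive term was -0.33 ± 0.08 (adjusted p = 0.0305), and male minus female it was 0.18 ± 0.04 (adjusted p = 0.0408). Those comparisons called 4.21% of all genes for non-additivity and 0.877% for sex. Against control, dual exposure gave -0.11 ± 0.06 (adjusted p = 0.294). All 4 Abca1 calls were lost among protein-coding genes alone (adjusted p from 0.0514 to 0.184) and without female dual replicate 2 (0.0857 to 0.154). The call against maternal exposure was also lost without male dual replicate 1 (0.0626) or 2 (0.0635), male maternal replicate 1 (0.105) or female maternal replicate 1 (0.114). The call against paternal exposure was also lost without male dual replicate 1 (0.0729) or 2 (0.0697), male paternal replicate 1 (0.138), or female paternal replicate 1 (0.128) or 2 (0.0531). The non-additive term was lost in 7 and the sex difference in 13 of the 16 fits that left out a library.

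Of 4 genes of cholesterol turnover 3 were tested and edgeR called none in any comparison. With dual exposure the log2 fold change was -0.15 ± 0.14 for Cyp46a1, the neuronal cholesterol 24-hydroxylase, 0.56 ± 0.55 for Cyp27a1 and -0.04 ± 0.07 for Soat1, with adjusted p-values of 0.588, 0.619 and 0.827. In bulk tissue, fewer cells of a type and less RNA per cell cannot be told apart for any of these genes.

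Sqle followed the rest of the set most closely from library to library. As log2 CPM taken from the mean of the library's sex, over 16 libraries, Sqle had a Pearson r of 0.79 with the mean of the other 6 genes. The value was 0.55 for Hmgcs1, 0.52 for Fdps, 0.48 for Idi1, 0.45 for Insig1, 0.45 for Fdft1 and 0.04 for Dhcr7. The mean of all 7 had an r of 0.68 with Cyp51, 0.65 with Msmo1 and -0.10 with Srebf2. The genes outside the 7 with the highest r were Tmem132b at 0.81, Vps29 at 0.79, Ada at 0.76 and Zfp74 at 0.76, followed by Btbd8, Zfp382, Wrnip1, Mboat1, Idh3a and Cfap97 down to 0.74. These r values describe libraries that also share depth and tissue make-up.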

How the data were processed

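RNA of gestational day 16 cortex was measured by sequencing of total RNA libraries. The authors deposited raw counts per gene, in a table for each library. Trimmomatic, STAR, featureCounts and the build GRCm39 (mm39) are named by the submitters' processing notes. The sources used here give no versions, annotation release, strand setting or treatment of multi-mapping reads. Symbols were matched by ID for 52083 of 55359 IDs through GENCODE M21 (GRCm38), which also gave exon lengths and gene overlaps, so no GRCm39 coordinates are given.

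Genes were filtered with filterByExpr (minimum count 10, minimum total 15), which left 21543. TMM scaling and the two-sided quasi-likelihood test (glmQLFit, glmQLFTest) came from edgeR 4.0.16 in R 4.3.3. One fit of 8 group means over 16 libraries had 8 residual degrees of freedom. The Benjamini-Hochberg adjustment ran over all genes tested, and calls needed an adjusted p under 0.05. The fit was tested on simulated data. Alternatives were DESeq2 1.42.0, other scaling, no filter, a replicate block, the compared groups alone, an additive model with or without the female dual libraries, protein-coding genes alone, and each library left out. Replicates differed by more than counting noise in all 8 groups. The 7 genes and the lists were chosen with earlier results of these data known. All 7 are named, with list genes that were called, or up to 4 of smallest p in a list with none. Some genes of these lists are not reported here, and the counts leave them out.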

Additional observations from a re-analysis of the deposited data

Results flagged for a closer look

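Acat2, the thiolase of the first step of the pathway, differed between the sexes in its response to dual exposure by 0.37 on the log2 scale, male minus female (edgeR adjusted p = 0.0450). It lay at 127 and 117 CPM in male dual libraries against 108 and 113 CPM in male controls, and at 112.5 and 110.1 CPM in female dual libraries against 129 and 132 CPM in female controls. The call was lost in 16 of 22 alternatives, 13 of which left out 1 library.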

How the results depend on the processing

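Over 2681 recomputed values of the 7 genes, 10 calls were lost, 8 were gained and 171 signs changed, 157 of them within 1 SE. For dual against maternal exposure, 1 gene was called as reported, 2 in a fit of the compared groups alone (Fdps and Idi1), 0 among protein-coding genes alone and 0 in males alone and in females alone, a split added after seeing the data. DESeq2 called 1 gene for the sex difference of the dual effect. Leaving out 1 library gave 0 to 2 calls for dual against maternal exposure, 0 to 1 for dual exposure against control, for dual exposure in females, for male against female and for the sex difference of the dual effect, and 0 to 0 for the other 12 comparisons.

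Some signs turned with a move of more than 1 SE from the reported value. Sqle with dual exposure in females turned among protein-coding genes alone (0.029 ± 0.065). Fdft1 with dual exposure turned in an additive model without the female dual libraries (0.084 ± 0.074). For dual against maternal exposure the sign turned for Dhcr7 in males alone (0.030 ± 0.105). In females alone it turned for Sqle (-0.028 ± 0.069), Insig1 (-0.18 ± 0.08) and Fdft1 (-0.073 ± 0.076). A turned value can itself lie within 1 SE of no change, as those of Sqle and Dhcr7 did. The value over both sexes is the mean of the male and the female difference, so 1 sex alone can have the other sign. Why the sexes differed, and the cause of the other turns, was not tested.

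With 1 library left out, the log2 fold change ran from -0.20 to 0.068 for Idi1 in males with maternal exposure and from -0.064 to 0.16 for Dhcr7 in males with paternal exposure. That of Fdps with paternal exposure ran from -0.080 to 0.31, from -0.19 to 0.59 in males and from -0.21 to 0.56 for its sex difference. With maternal exposure it ran from -0.10 to 0.057 for Hmgcs1, and in females from -0.14 to 0.058 for Dhcr7 and from -0.17 to 0.019 for Fdft1.

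The replicate numbers only share a label: deviations of same-numbered libraries correlated between -0.34 and 0.37, with a median of 0.02. With the replicate number as a block, 1 gene was called for dual against maternal exposure and 0 in the other 16 comparisons, and no other call changed. Counts over all genes moved more: for dual against control 724 were called, 946 with DESeq2, 1345 with no filter on low counts and 0 among protein-coding genes alone. Fdps had the fewest counts of the 7 genes, 54 to 180 per library, which limits its precision.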
